A study of Homo sapiens with 6 samples.

Results

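The stretch described here runs from C441 to G690 of human 18S ribosomal RNA (rRNA), the RNA of the small ribosomal subunit. Its members are the 250 table rows in this range, taken by position whatever their values, out of 6939 rows for 18S (1869) and 28S rRNA (5070). A row counted when at least 100 reads crossed it in both libraries of a pair, and all 250 passed in each of the 3 pairs. Positions are counted from 1 in the deposited 18S sequence. No genome build applies to them, and RefSeq (GRCh38.p14) lists 5 RNA18SN genes of 1869 bases each, so reads from the many rDNA copies cannot be separated.

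The RNA came from HEK293T/17, a human embryonic kidney cell line, as total RNA longer than 200 nt. It was fragmented and then treated with CMC or mock-treated. CMC is a carbodiimide that forms adducts on U, G and pseudouridine. Each preparation was copied into cDNA in 1 of 3 ways: HIV reverse transcriptase (HIV RT) with magnesium, SuperScript III with manganese, or SuperScript III with magnesium. SuperScript III is an engineered murine leukaemia virus enzyme. This gave 6 libraries, 1 for each combination, all from the same cell line and without any perturbation of the cells. No difference between libraries therefore has a replicate check.

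Pseudouridine (Ψ) is an isomer of uridine in which the base is joined to the sugar through a carbon atom. In rRNA it is made by dyskerin, guided to each site by an H/ACA small nucleolar RNA, and it pairs with A as U does. An untreated Ψ is therefore read much like U, whereas a CMC adduct on it sits on the pairing face of the base and can end the cDNA or lead to a wrong base being built in. This part of 18S rRNA holds 6 known pseudouridines, Ψ572, Ψ609, Ψ649, Ψ651, Ψ681 and Ψ686, and the 530 loop, a conserved hairpin that lies at the decoding centre of the small subunit. It also holds ribose-methylated nucleotides, which carry a methyl group on the sugar and leave the pairing face free.

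The whole stretch is shown first, 5′ to 3′, with the 6 pseudouridines in capitals, because their spacing bears on the results: Ψ649 and Ψ651 are separated by 1 base, and Ψ681 and Ψ686 lie close together near the 3′ end.
18S C441 to G690: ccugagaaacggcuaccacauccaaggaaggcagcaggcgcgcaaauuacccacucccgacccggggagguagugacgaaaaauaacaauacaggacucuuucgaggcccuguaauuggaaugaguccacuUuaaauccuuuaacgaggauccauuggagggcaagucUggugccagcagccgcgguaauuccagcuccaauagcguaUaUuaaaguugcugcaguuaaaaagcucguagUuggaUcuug
The 15-base windows around each site show the neighbours on both sides, with the pseudouridine in the capital at the centre.
Ψ572: guccacuUuaaaucc
Ψ609: gcaagucUggugcca
Ψ649: uagcguaUauuaaag
Ψ651: gcguauaUuaaaguu
Ψ681: cucguagUuggaucu
Ψ686: aguuggaUcuuggga
The base on the 3′ side is copied just before the site. It is A at Ψ649, U at Ψ572, Ψ651 and Ψ681, C at Ψ686 and G at Ψ609. The stretch has 73 A, 60 C, 63 G and 54 U, and A makes up 29.2% of it against 22.4% of all 18S.

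A row gives how many reads passed through a position, which bases they showed and how many ended there. Below, mutation share means the percentage of passing reads whose base differs from the reference. Stop share means ended reads as a percentage of ended and passing reads combined, with a stop taken as assigned to the first base left uncopied. In the 5′ rows that were checked, the passing count of a row left out reads booked as stops on the next row 5′. If this holds throughout, stop shares are overstated where the row 5′ has many stops, as at Ψ572, Ψ651 and Ψ686. Mutation shares lack the same reads. A change is the CMC share minus the mock share, in percentage points, written as points. The libraries held between 21206954 and 47002169 ended reads over both rRNAs, and median coverage of the stretch ran from 102608 reads (HIV RT with CMC) to 257165 (HIV RT mock). Coverage was lowest near the 3′ end, down to 11474 crossing reads at Ψ686 in the HIV RT library with CMC. The 95% Newcombe interval of a change extended to either side by at most 0.408 points for a mutation share and 0.678 points for a stop share. Intervals cover counting error alone and take each read as independent. They hold no variation between libraries, because each group has 1 library. PCR copies of 1 molecule cannot be recognised here, so intervals can be too narrow and p-values too small. Fisher's exact test (two-sided) compared the 2 libraries of a pair at each row, and its p-values were adjusted for all rows of both rRNAs by the Benjamini-Hochberg method. A share is said to have risen or fallen when it passed an adjusted 0.05 and changed by at least 5 points, which compares 2 libraries and not 2 treatments.

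The first question was where cDNAs ended more often after CMC. All 6 pseudouridines had stop shares that rose with HIV RT and with SuperScript III and magnesium, and 4 of 6 (Ψ572, Ψ649, Ψ651 and Ψ686) rose with manganese. Over all rows of both rRNAs the share that rose was 10.1%, 8.38% and 9.22% for HIV RT, manganese and magnesium. The median change over the 6 sites was 22.4, 8.98 and 22.6 points for HIV RT, manganese and magnesium, against medians over all rows tested of 0.154, 0.0238 and 0.00510 points. The manganese median depends on weighting: with reads pooled over the 6 sites the changes were 25.5, 23.2 and 29.2 points. The 37 other pseudouridines listed in 18S had medians of 14.1, 9.62 and 22.0 points, on the same scale.

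Ψ572 had the largest stop change of the 6 in 2 of the 3 conditions. Its stop share was 43.0% after CMC against 4.39% in the mock library for HIV RT, 52.5% and 4.85% with manganese, and 55.6% and 5.20% with magnesium. The change was 38.6 points (Newcombe interval 38.3 to 38.9), 47.7 points (47.4 to 48.0) and 50.4 points (50.1 to 50.8). Ψ649, the only site of the 6 with an A on its 3′ side, had the largest change with HIV RT, 39.8 points. There the share was 42.0% with CMC and 2.19% without, and with SuperScript III it was 49.6% and 7.35% with manganese and 45.9% and 7.58% with magnesium. In each CMC library these 2 sites had the highest stop shares of the 6.

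Ψ651, separated from Ψ649 by 1 adenosine, varied with the condition. Its stop share was 27.8% after CMC against 3.48% in the mock library for HIV RT, and 25.7% and 6.40% with magnesium. With manganese it was only 8.04% and 2.51%, a change of 5.53 points (5.26 to 5.81) against 24.4 and 19.3 points. Ψ686 had shares of 22.4%, 15.1% and 28% with CMC in the order HIV RT, manganese, magnesium, and 2.03%, 2.64% and 2.05% without. At both sites the manganese library was the lowest of the 3 CMC libraries.

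Ψ609 and Ψ681 were the weakest stops. Ψ609 lies just 5′ of G611 to A629, the conserved core of the 530 loop, and is the only site followed by G. It had 10.9%, 6.84% and 11.7% with CMC and 1.66%, 3.58% and 1.47% without. Ψ681 had 8.99%, 1.93% and 11.2% with CMC and 2.07%, 0.721% and 0.540% without. The changes with manganese, 3.26 points (3.09 to 3.42) at Ψ609 and 1.21 points (1.04 to 1.39) at Ψ681, were above 0 by counting error but under the 5-point bar. The order of the sites by stop change was the same with HIV RT and magnesium except for neighbouring ranks: Ψ649, Ψ572, Ψ651, Ψ686, Ψ609, Ψ681 with HIV RT and Ψ572, Ψ649, Ψ686, Ψ651, Ψ681, Ψ609 with magnesium. With manganese it was Ψ572, Ψ649, Ψ686, Ψ651, Ψ609, Ψ681. The Newcombe intervals overlapped for 1 neighbouring pair of ranks, Ψ681 and Ψ609 with magnesium (10.6 points with a lower bound of 10.2, and 10.2 points with an upper bound of 10.4).

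**Figure D1:**
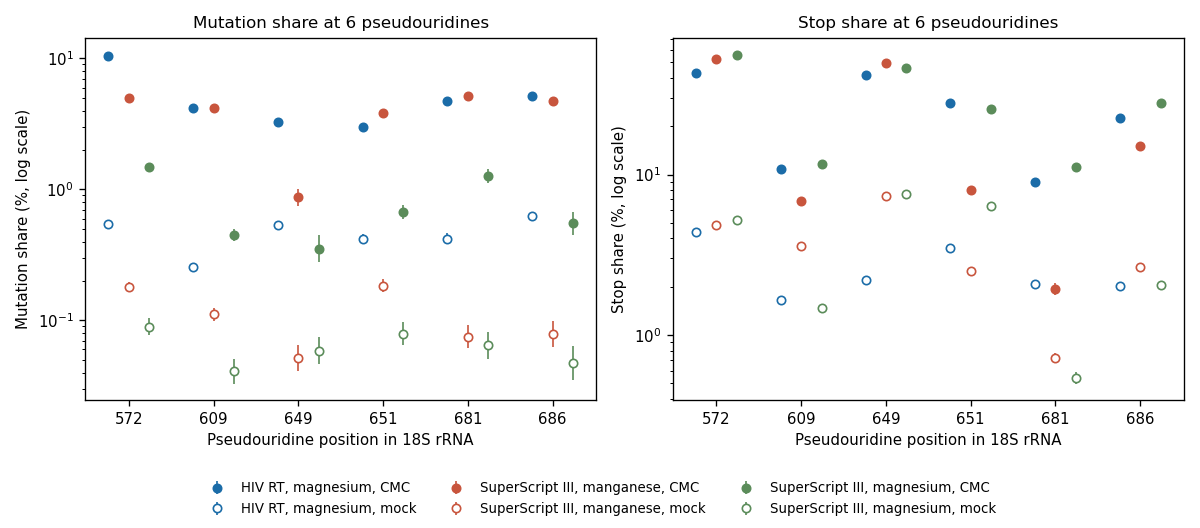
Mutation share (left) and stop share (right) in percent, on log axes, at the 6 pseudouridines in the 6 libraries; filled points are CMC, open points mock, colours the condition, and bars 95% Wilson intervals. Every filled point lies above the open point of its colour, and the manganese stop share at Ψ681, 1.93% against 0.721%, is the smallest separation in points on the right.

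**Figure D2:**
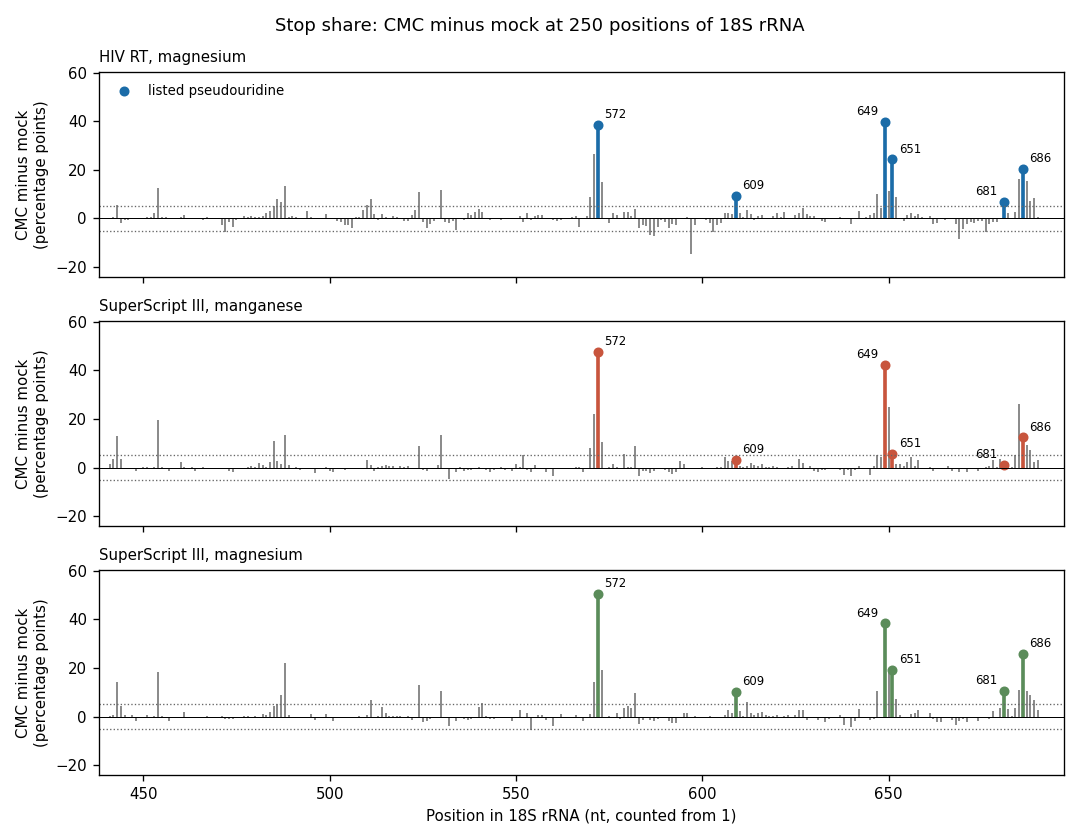
Change in stop share, CMC minus mock in percentage points, at each of the 250 positions in the 3 conditions; coloured stems are the 6 pseudouridines, grey stems all other positions, and dotted lines mark 5 points in both directions. The tall stems cluster around Ψ572, around Ψ649 and Ψ651, and around Ψ686, and a downward stem at G597 appears with HIV RT (14.5 points) but stays under the bar with SuperScript III.

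Stops did not fall on the pseudouridine alone. If stops are booked on the first uncopied base, a stop 1 nt 5′ of a site belongs to a cDNA that had copied the site and ended there. A stop booked 1 nt 3′ then belongs to a cDNA that ended 1 base before reaching it. With HIV RT and with magnesium the largest change within 1 nt lay on the pseudouridine itself at all 6 sites. With manganese it lay 1 nt 5′ at 3 of 6 sites, Ψ651, Ψ681 and Ψ686.

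The largest such change was at A685, the adenosine 5′ of Ψ686. Its stop share with manganese was 27.3% with CMC and 1.32% without, a change of 26.0 points, where Ψ686 itself changed by 12.4 points. With HIV RT the pair had 16.3 points at A685 and 20.4 at Ψ686, and with magnesium 10.8 and 25.9. The balance between the 2 rows was thus turned around in the manganese libraries.

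A650 showed the same order. It lies between 2 pseudouridines. If stops are booked on the first uncopied base, a stop there follows the copying of Ψ651 and comes 1 base before Ψ649. Its share was 32.2% with CMC and 7.28% without for manganese (24.9 points), 12.8% and 1.63% for HIV RT (11.2 points), and 23.3% and 4.60% for magnesium (18.7 points). With manganese the change at A650 was larger than the 5.53 points at Ψ651, and with HIV RT and magnesium it was smaller than that at Ψ651 (24.4 and 19.3 points). At Ψ681 the 5′ row, G680, changed by 3.58 points with manganese against 1.21 at the site, both under the bar. Which part of the A650 stops goes with which pseudouridine was not tested.

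Around Ψ572 the 3 uridines in a row all had more stops. U571 rose from 2.64% to 29.2% with HIV RT, from 2.32% to 24.2% with manganese and from 2.42% to 16.5% with magnesium. U573 rose from 1.84% to 16.9%, from 5.27% to 15.8% and from 4.52% to 23.6%. The 5′ uridine thus led the 3′ one with HIV RT and manganese (26.5 against 15.0 points, and 21.9 against 10.5), and the 3′ one led with magnesium (19.1 against 14.0). On the 3′ side of Ψ686, C687 rose from 4.57% to 19.9%, from 1.82% to 10.9% and from 1.70% to 12.4% in the order HIV RT, manganese, magnesium. Beside Ψ609 the 2 adjoining rows changed by 0.531 to 2.60 points and none passed the bar.

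**Figure D3:**
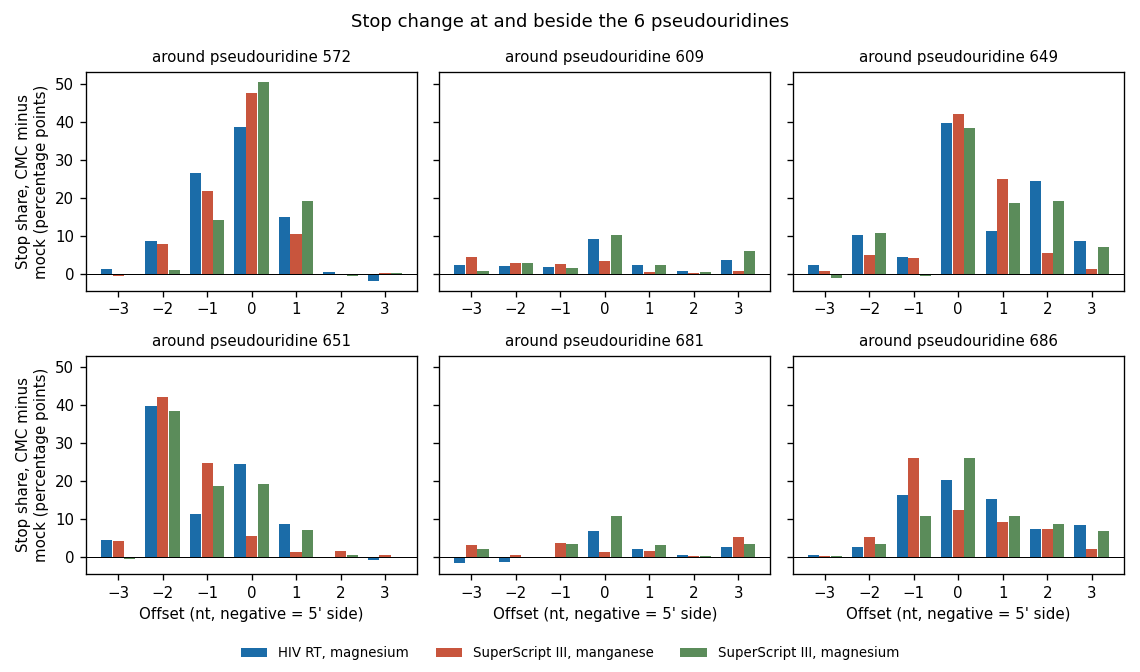
Change in stop share, CMC minus mock in percentage points, at each pseudouridine (offset 0) and at 3 nt on either side, with negative offsets on the 5′ side; bars are the 3 conditions. The manganese bar at offset -1 exceeds the one at offset 0 for Ψ651 (24.9 against 5.53 points) and Ψ686 (26.0 against 12.4), and the bars around Ψ609 stay small.

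Over the whole stretch 26, 21 and 25 rows rose in stop share (HIV RT, manganese, magnesium), which is 10.4%, 8.4% and 10% of 250 and close to the shares over both rRNAs given above. U made up 19 of 26, 14 of 21 and 22 of 25. In all, 31 rows rose in at least 1 condition and 16 in all 3, which is 61.5% of the HIV RT rows, 76.2% of the manganese rows and 64.0% of the magnesium rows. Of the 31, 6 were pseudouridines, 12 others lay within 3 nt of one and 13 lay farther away. The 16 were Ψ572, Ψ649, Ψ651 and Ψ686, 9 unlisted uridines (443, 454, 488, 524, 530, 571, 573, 647 and 688), A650, A685 and C687. Each of the 3 rows that were not U touches a pseudouridine.

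Among rows more than 3 nt from a listed pseudouridine, U488 had the largest rise with HIV RT and magnesium and U454 with manganese. U488 had 15.6% after CMC against 2.23% in the mock library for HIV RT, 14.0% and 0.767% with manganese, and 26.9% and 4.98% with magnesium. U454 had 13.9% and 1.19%, 25.7% and 6.30%, and 24.1% and 5.92%, and U443, U524 and U530 changed by 5.66 to 14.2 points. U488, U454, U524 and U530 are followed by A and U443 by G. A485 was the non-uridine with the largest rise at that distance, 11.0 points with manganese from a mock share of 16.3%, and it changed by 5.20 points with HIV RT and 4.38 with magnesium.

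Grouped by the base on the 3′ side, the 13 unlisted uridines before an A had median stop changes of 8.69, 5.02 and 9.55 points in the order HIV RT, manganese, magnesium, and 8, 7 and 9 of them rose. Among these 13, U573, U647, U652 and U678 lie within 3 nt of a pseudouridine. Before a C, 0 of 11 rose in any condition, and the medians were 0.803, -0.537 and 0.456 points. Before a G, 2, 1 and 3 of 11 rose, and before a U, 3, 2 and 4 of 12. Of all 47 unlisted uridines 27.7%, 21.3% and 34% rose, against 10.1%, 8.38% and 9.22% of all rows. Their medians were 1.72, 0.573 and 2.64 points, and the 298 unlisted uridines of the rest of 18S had 2.94, 1.35 and 3.43. Whether cDNAs that end in different bases were recovered alike was not tested.

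A fall in stop share was seen at 7, 0 and 1 rows in the same order, against 3.66%, 1.98% and 1.84% of all rows of both rRNAs. The 7 with HIV RT were C472, G586, A587, G597, C603, A669 and C676, none of them a uridine or within 3 nt of a pseudouridine. G597 had the largest fall, from 19.1% in the mock library to 4.60% with CMC, and its mock share was 1.27% with manganese and 1.95% with magnesium. In all 7 rows the HIV RT mock share was above both SuperScript III mock shares, and the change with SuperScript III lay between -2.16 and 0.125 points. The 1 row that fell with magnesium was A554, from 7.78% to 2.40%.

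The next question was where bases were misread more often after CMC. The 6 pseudouridines had median mutation changes of 4.11, 4.35 and 0.548 points for HIV RT, manganese and magnesium. The medians over all rows tested were 0.0542, 0.195 and 0.0529 points, and those of the other 37 pseudouridines of 18S were 5.13, 3.47 and 0.445 points. Mutation was higher with CMC at 6 of 6 sites in every condition, but only Ψ572 with HIV RT and Ψ681 with manganese passed the 5-point bar. A higher share with CMC was also usual at unlisted uridines of the stretch, at 43, 47 and 46 of 47 (HIV RT, manganese, magnesium). Their median changes were smaller, 0.817, 0.580 and 0.103 points. The shares of all rows that rose were 1.05%, 1.29% and 0.159% for HIV RT, manganese and magnesium.

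Ψ572 had the highest mutation share with HIV RT, 10.4% with CMC and 0.541% without, a change of 9.90 points (9.64 to 10.2). With manganese it had 5.03% and 0.179%, a change of 4.85 points (4.67 to 5.03), and with magnesium 1.48% and 0.0897%. It was therefore high for stops and for mutations in the same libraries.

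Ψ681, the weakest stop with HIV RT and manganese, had the largest mutation change of the 6 with manganese, 5.15% with CMC and 0.0752% without (5.07 points, 4.80 to 5.36). With HIV RT it had 4.74% and 0.421%, and with magnesium 1.27% and 0.0644%. The manganese interval spans the bar, and that of Ψ572 (4.67 to 5.03) does too, so which of the 2 counts as risen rests on a small difference.

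Ψ686 and Ψ609 gave nearly equal shares with HIV RT and manganese. Ψ686 had 5.16% after CMC against 0.622% in the mock library for HIV RT, 4.71% and 0.0784% with manganese, and 0.551% and 0.0475% with magnesium. Ψ609 had 4.15% and 0.255%, 4.17% and 0.111%, and 0.450% and 0.0410%. At these 2 sites the intervals of the HIV RT and manganese changes overlapped (4.14 to 4.96 and 4.34 to 4.93 points at Ψ686, 3.76 to 4.04 and 3.94 to 4.19 at Ψ609).

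Ψ649, a strong stop, was the least mutated of the 6 with SuperScript III. Its shares were 3.28% after CMC against 0.538% in the mock library for HIV RT, 0.869% and 0.0515% with manganese, and 0.354% and 0.0589% with magnesium. The magnesium change of 0.295 points still had an adjusted p of 6.60e-22 by Fisher's exact test, which shows how small a difference these depths pass. Ψ651, its neighbour, had 3.01% and 0.418%, 3.81% and 0.185%, and 0.671% and 0.0793%.

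The balance of the 2 readouts differed widely between sites and conditions. The ratio of mutation change to stop change was lowest at Ψ649 in all 3 conditions, 0.0690, 0.0194 and 0.00770 for HIV RT, manganese and magnesium. It was highest at Ψ681, 0.623, 4.19 and 0.113. With manganese it exceeded 1 at Ψ681 and at Ψ609 (1.25), so there misread bases outnumbered added stops in points. Stops changed more than mutations at all 6 sites with HIV RT and magnesium. Ψ651 moved from 0.107 with HIV RT to 0.655 with manganese.

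**Figure D4:**
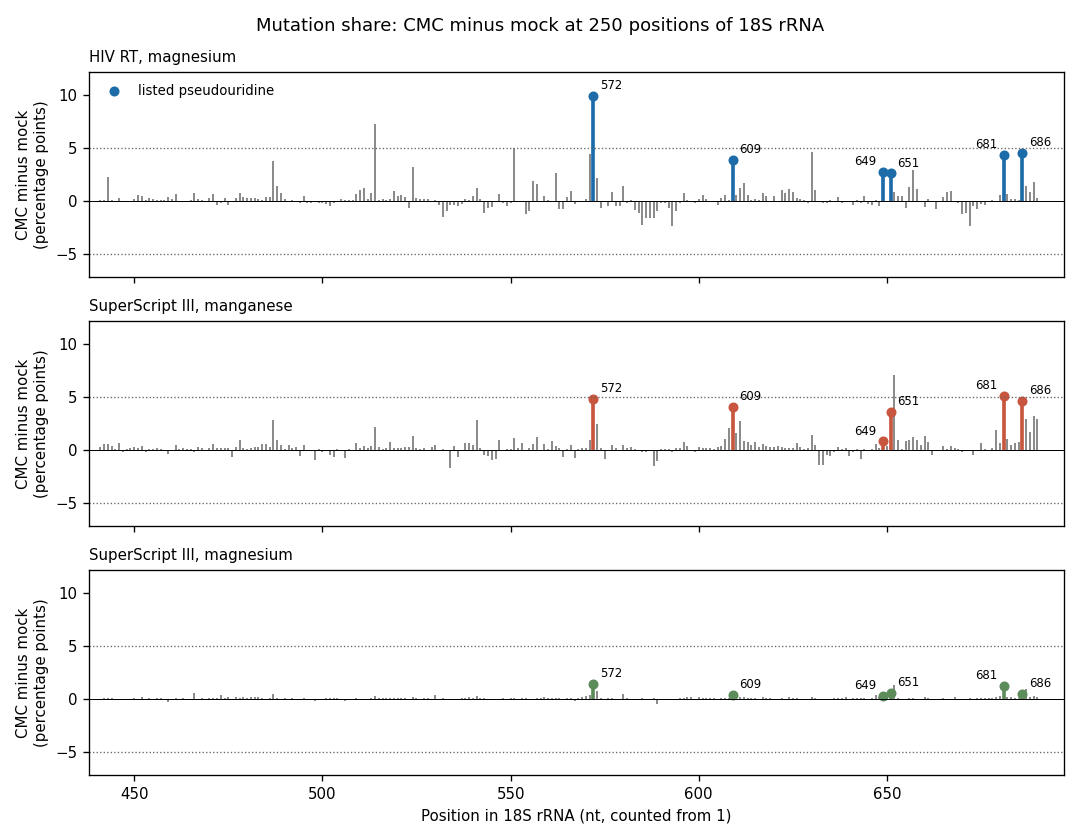
Change in mutation share, CMC minus mock in percentage points, at the 250 positions in the 3 conditions; coloured stems are the 6 pseudouridines, grey stems all other positions, and dotted lines mark 5 points. With magnesium no stem exceeds 1.39 points, and outside the pseudouridines the tallest stems are U514 with HIV RT (7.27 points) and U652 with manganese (7.04 points).

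Mutation rose at 2, 2 and 0 rows (HIV RT, manganese, magnesium) and fell at 0 in each, where 0.101%, 0.332% and 0.0868% of all rows fell. Besides the 2 pseudouridines, these were U514 with HIV RT and U652 with manganese. U551 and U630 came closest to the bar with HIV RT among unlisted rows and are added after their values were seen. Their windows are shown because the base read differed between them, with the uridine in the capital.
U514: gagguagUgacgaaa
U551: gaggcccUguaauug
U630: gcgguaaUuccagcu
U652: cguauauUaaaguug
U514 and U551 are followed by G, U630 by U and U652 by A.

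U514 had mutation shares of 7.94% after CMC against 0.670% in the mock library for HIV RT, 2.55% and 0.425% with manganese, and 0.445% and 0.204% with magnesium. Its stop share passed the bar in no condition. U551 changed by 4.97 points and U630 by 4.63 points with HIV RT. U652, next to Ψ651, had 12.0% with CMC and 4.91% without for manganese, 2.09% and 0.801% with magnesium, and 1.34% and 0.507% with HIV RT. It was thus already the most misread of the 250 rows in the manganese mock library.

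The leading misread base after CMC differed between conditions at every pseudouridine except Ψ681. Reads with C at a U position correspond to G built into the cDNA, and reads with A to T. At Ψ572 mismatched reads after CMC were mostly A with HIV RT (67.6%, C 31.2%) but mostly C with manganese (86.3%, A 12.8%) and with magnesium (68.1%, A 26.1%). The mock libraries had the same leading bases there, A at 58.4% with HIV RT and C at 89.9% and 81.9% with SuperScript III. At Ψ686 A led with HIV RT (58.3%), G and C were close with manganese (46.8% and 44.1%), and C led with magnesium (48.9%, from 92 mismatched reads).

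Ψ609 was read as G in 55.8% of mismatched reads with HIV RT after CMC, against 21.5% in the mock library. With manganese C led (49.2%) and G had 31.5%. At Ψ649 C led with HIV RT (65.6%) and A with manganese (68.3%, from 167 mismatched reads). At Ψ651 the leading base was C with HIV RT (76.1%) and A with manganese (54.3%). In the manganese mock library A made up 82.0% at Ψ651.

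Ψ681 alone had the same leading base after CMC in all 3 conditions with over 80% of mismatched reads, C at 92.6%, 90.8% and 88.7% for HIV RT, manganese and magnesium. Without CMC its C shares were 51.5%, 56.7% and 24.6%, the last from 69 mismatched reads. Pooled over the 6 sites, C made up 40.8%, 62.1% and 62.1% for HIV RT, manganese and magnesium after CMC, and 39.9%, 54.9% and 52.5% without. Ψ572 gave 5652 of the 11920 mismatched reads with HIV RT, and as an unweighted mean over the 6 sites C made up 54.8%, 56.8% and 56.8% after CMC. C led at 3, 3 and 4 of the 6 sites after CMC. With magnesium A led C narrowly at Ψ649 (31 against 27 reads) and at Ψ651 (102 against 98).

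Of the unlisted uridines, U514 was read as C in 85.1% of mismatched reads after CMC with HIV RT, against 41.5% in the mock library, and U551 in 72.4% against 35.9%. U630 was read as A in 67.3% after CMC with HIV RT and in 83.6% with manganese, against 29.6% and 17.8% in the mock libraries. U652 was read as A in 96.8% of mismatched reads with manganese after CMC and in 98.0% without. At U652 CMC changed the share of misread reads while their leading base stayed the same.

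**Figure D5:**
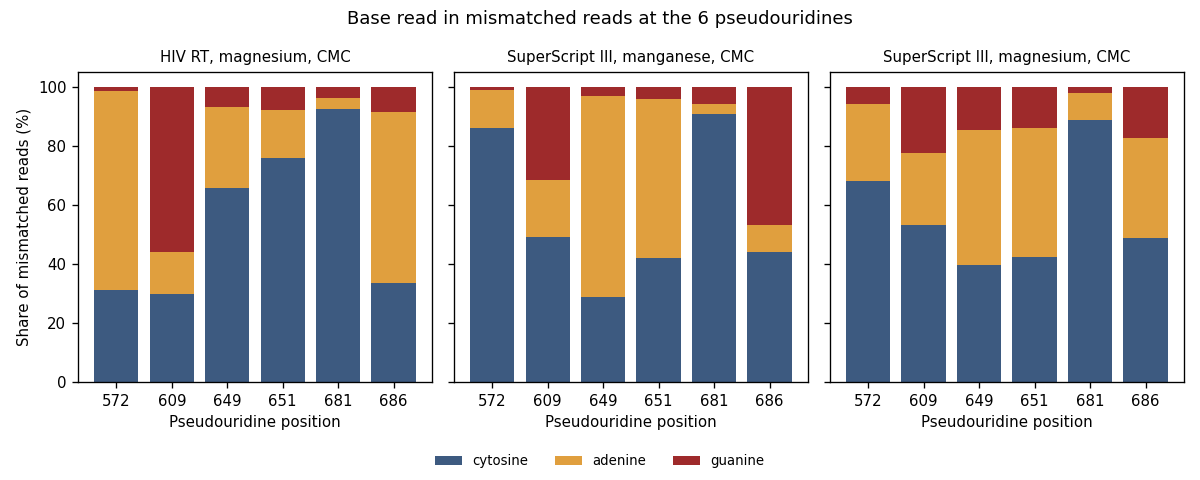
Share in percent of cytosine, adenine and guanine among mismatched reads at the 6 pseudouridines in the 3 CMC libraries, each bar summing to 100%. Cytosine fills most of the bar at Ψ681 in all 3 panels, adenine leads at Ψ572 with HIV RT (67.6%), and guanine at Ψ609 with HIV RT (55.8%).

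No call was made at the ribose-methylated positions, a count too small to set them apart from the 10.1%, 8.38% and 9.22% of all rows that rose in stop share and the 1.05%, 1.29% and 0.159% that rose in mutation share. The list had 13 in this stretch, and 12 carried the listed base: C462, A468, A484, G509, C517, A576, A590, G601, U627, G644, A668 and G683. In no condition did a mutation or stop share at any of the 12 pass the bar, and the largest change was 4.38 points for stop at U627 with HIV RT (3.76% without CMC, 8.14% with). In the mock libraries their median stop share was 1.95%, 1.74% and 1.36% for HIV RT, manganese and magnesium, against 2.12%, 1.92% and 1.77% over all 250 rows. The highest was 4.89% at A668 with magnesium. Their median mock mutation share was 0.430%, 0.124% and 0.100%, and A576 was the highest in each library (1.06%, 0.866% and 0.497%).

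The 530 loop contains the stretch below, from 16 nt before to 2 nt after U627, which occurs once in the sequence. It is shown as the conserved core of the loop, with the ribose-methylated U627 in the capital.
18S G611 to A629: gugccagcagccgcggUaa
Of these 19 rows, none rose in mutation share and 1 rose in stop share, U612 with magnesium, by 5.99 points from 1.30%. With 10.1%, 8.38% and 9.22% of all rows rising in stop share (HIV RT, manganese, magnesium), counts of 0, 0 and 1 of 19 are too small to set the stretch apart. At U612 the stop changes with HIV RT and manganese were 3.50 and 0.812 points. The median stop change of the 19 rows was 0.988, 0.462 and 0.443 points for HIV RT, manganese and magnesium. The largest mutation change there was 2.74 points, at G611 with manganese, where the mock share was 3.11%.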

How the data were processed

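Reads were trimmed and aligned with Trimmomatic 0.32 and Bowtie 1.0, per the submitters' processing notes; neither their settings nor the program that counted bases and stops was found in the labels. File naming sets the HIV RT tables apart from the SuperScript III ones, and whether processing differed is not stated. The authors deposited 12 tables, 1 per library and rRNA, with raw counts of crossing reads, bases and stops per position, and a mismatch rate and stop frequency as a fraction. Both fractions were recomputed from the counts within 1e-09 in 12 of 12 tables. How stops are booked was checked only at the 5′ end. In 12 of 12 tables, crossing counts in the third and the second row differ by exactly the stops of the first row. That equality alone cannot tell a stop booked on the first uncopied base from 1 booked a base farther 5′.

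Shares, Wilson and Newcombe intervals (95%), Fisher's exact tests and Benjamini-Hochberg values were computed with scipy 1.17.1, and the calls were tested on simulated data. The simulation held counting error alone, so it cannot show how calls behave under variation between libraries. The stretch, its members and the lists were chosen with earlier results of these data known; every row of the stretch is a member. Modified positions were listed from general knowledge. Of 13 ribose-methylated positions 1, at 512, was listed as C where the deposited sequence has A, and was left out. Whether the list is wrong there was not checked. Stop changes at A512 were 1.82, -1.54 and -0.365 points (HIV RT, manganese, magnesium), under the bar. Named were all 6 pseudouridines, methylated positions by range, and outside the lists the called rows with the largest rises (3) and falls (2) per condition and measure, the 3 highest mock rows per library, and the neighbours of pseudouridines. Alternatives were other size bars, coverage minimums, tests, denominators, stop rows and pooling.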

Additional observations from a re-analysis of the deposited data

How the results depend on the processing

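No paired analysis was possible because each group holds 1 library. Of 66 recomputed values for 15 results, 35 stayed within their limits, 31 moved and 0 reversed. Coverage minimums of 1000 or 1 read and the chi-square test changed no count of rises. The minimums could not, because every row of the stretch had at least 11474 crossing reads. The 5-point bar decided the calls under either test, because intervals reached at most 0.678 points to either side. Each of these settings gave 6 of the 35 values that stayed, so those values say little. With a bar of 2 points, mutation rose at 16 (HIV RT) and 15 (manganese) rows and stops at 55, 42 and 46 (HIV RT, manganese, magnesium); with 10 points, mutation rose at 0 and 0 and stops at 14 and 12. With stops in the denominator 1 row rose in mutation with manganese, and the mutation medians were 3.42, 3.55 and 0.391 points. Pooling reads over the 6 sites gave 5.16 (HIV RT) and 0.717 (magnesium) points for mutation and 25.5, 23.2 and 29.2 for stops. Ψ572 and Ψ609 alone, without another listed site within 5 nt, gave 6.90 and 0.902 for mutation (HIV RT, magnesium) and 25.5 and 30.3 for stops (manganese, magnesium). The row 1 nt 3′ gave stop medians of 9.94, 5.39 and 8.90, and the row 1 nt 5′ gave 7.77, 13.0 and 7.06. The largest change within 1 nt, chosen after seeing the data, gave 25.4 points with manganese. As a mean over sites, C made up 54.8%, 56.8% and 56.8% of mismatches. The manganese stop median thus depends on the row and on weighting, and the cause was not tested. Depth limits the mutation and stop shares little. It does limit the base read, which with magnesium after CMC rests on as few as 68 mismatched reads, at Ψ649. Missing replicates limit every comparison.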

Other observations

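The mock libraries differed in where enzymes stopped without CMC. With HIV RT the highest stop shares were 19.1% at G597, 11.7% at G444 and 11.5% at U530. With SuperScript III they were at A485 (16.3% with manganese, 12.3% with magnesium) and A448 (11.0% and 11.1%), where HIV RT had 3.31% and 3.40%. U530 was high in all 3 mock libraries, with 8.83% for manganese and 9.76% for magnesium. The next highest with manganese was A583 at 9.30%. None of these rows is itself a listed modification, but A485 lies directly 3′ of the ribose-methylated A484.

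Misreading without CMC was also led by different rows. With HIV RT the highest mock mutation shares were at C585 (3.18%), G588 (3.09%) and C593 (2.90%). With manganese they were at U652 (4.91%), G598 (3.36%) and G534 (3.23%), and with magnesium at G589 (0.948%), C459 (0.807%) and U652 (0.801%). G588 was read nearly alike with HIV RT and manganese (3.09% and 3.13%) and had 0.318% with magnesium.

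Across the 250 rows, which share each library's depth, the stop changes of 2 conditions had Pearson's r of 0.847 (HIV RT and manganese), 0.893 (HIV RT and magnesium) and 0.894 (manganese and magnesium), and Spearman's rho of 0.607, 0.675 and 0.785. For mutation changes r was 0.635, 0.569 and 0.792 and rho was 0.671, 0.461 and 0.616. These describe neighbouring positions of the same RNA and carry no test.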
